A study of Mus musculus with 2 samples.

Results

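The genes of cholesterol synthesis, sensing, uptake and export were examined in the whole pancreas of WT and *Mafk*-Tg mouse embryos at E15.5. They come from a list of 32 genes grouped by known function, which was drawn up with earlier results of these data known. Of these, 29 were measured by at least 1 probe set named for a single gene, among 19938 genes measured in that way, and *Acat2*, *Soat1* and *Soat2* were not analysed here. The transgene placed a FLAG-tagged murine *Mafk* cDNA under the rat insulin I promoter, which is active in β-cells, and the whole organ also holds cells in which that promoter is not active. The founders came from BDF1 eggs, both genotypes were on an ICR background, and no other allele or treatment was stated for either. For each genotype 1 Affymetrix mouse gene array was analysed. The study states 3 pancreata of each genotype for its arrays, and elsewhere calls the array samples technical replicates. The labels do not give the number of pancreata behind an array, and pooling of RNA is not stated. It is therefore unknown whether a value describes a single embryo or several. Since each genotype has a single array, spread among replicates is unknown, no test was run, and every value describes 2 arrays.

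Cells build cholesterol from acetyl-CoA by way of mevalonate, farnesyl diphosphate, squalene and lanosterol. When sterols fall short, SCAP carries the SREBP transcription factors from the endoplasmic reticulum to the Golgi, where they are cut, and the released part enters the nucleus and raises transcription of the synthesis genes. The INSIG proteins hold SCAP back when sterols are plentiful, and *Insig1* is itself a target of SREBP. In the pancreas, membranes of the secretory pathway and its granules need cholesterol, and both acinar and endocrine cells are rich in them.

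The synthesis genes lay slightly higher in the *Mafk*-Tg array, and few passed 1.2-fold, the cutoff that the study used and 0.26 on the log2 scale. Of the 29 genes, *Fdps*, *Lss* and *Insig1* lay 1.2-fold or more higher in *Mafk*-Tg, or 10.3%, against 7.96% of all genes. *Tm7sf2* and *Lrp8* were at least 1.2-fold lower, or 6.90%, against 10.5% of all genes. Of the cholesterol genes, 28 of the 29 were, averaged over both arrays, no dimmer than the middle of all probe sets. Of the 11412 genes as bright as that, here called the brighter genes, 5.58% were higher and 5.87% lower by 1.2-fold. The counts past 1.2-fold were near these shares for the lower genes, and rest on 3 genes for the higher ones. The robust SD of the difference was 0.19 over all genes, 0.15 over the brighter genes and 0.11 over the cholesterol genes.

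A difference above 0 was found in 22 of the 29 genes, or 75.9%, where 44.9% of all genes and 47.3% of the brighter genes had one. The median log2 difference of the 29 genes was 0.09, against -0.01 over all genes. Among the brighter genes the upper quartile of the difference was 0.10, which 25% of those genes exceed by definition and 14 of the 29 cholesterol genes exceeded. The lower quartile was -0.11, and 2 of the 29 lay below it. The 17 measured synthesis enzymes accounted for 11 of the 14, with 15 differences above 0, 1 below and 1 at 0, and their median was 0.12. The 12 other genes had a median of 0.02, with 7 differences above 0 and 5 below.

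**Figure D1:**
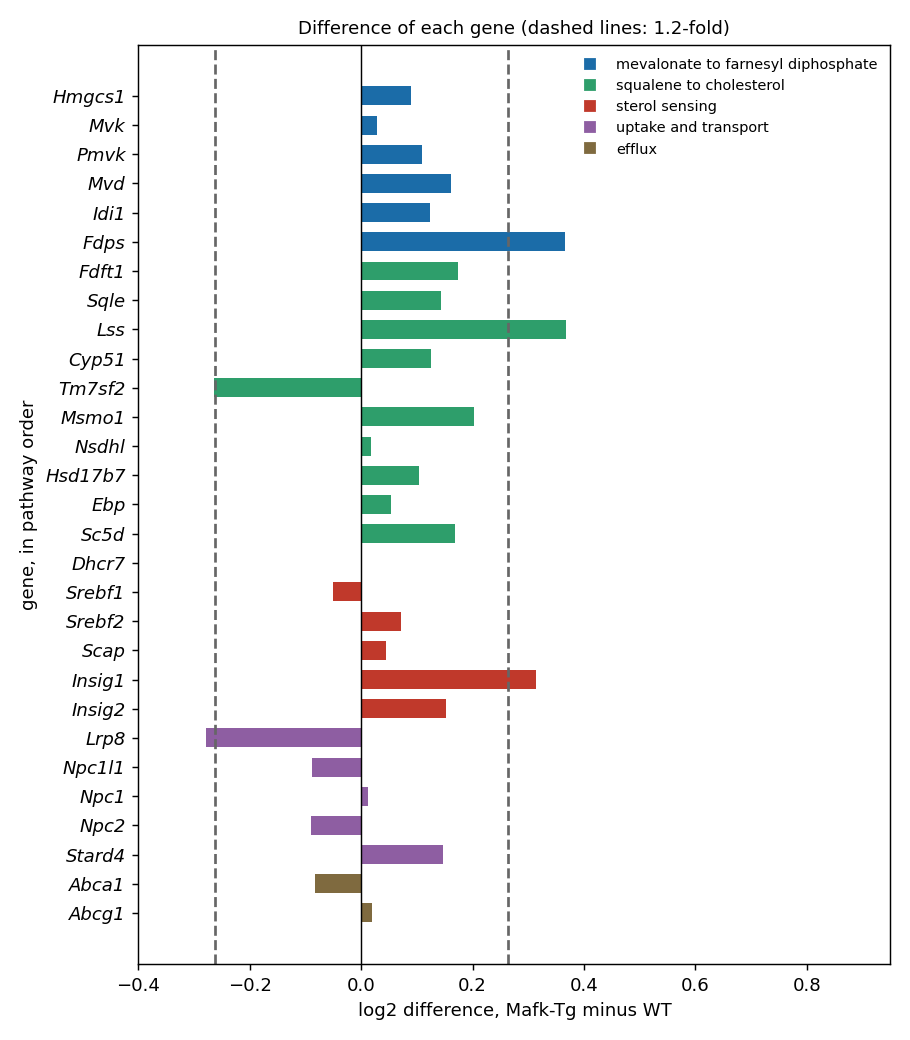
Log2 difference, *Mafk*-Tg minus WT, of 29 cholesterol genes in pathway order, with 1 array per genotype, bars coloured by role and dashed lines at 1.2-fold. *Lss* and *Fdps* reach 0.37 and *Insig1* 0.31, while *Lrp8* and *Tm7sf2* lie at -0.28 and -0.26.

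The 6 measured enzymes that lead from acetoacetyl-CoA to farnesyl diphosphate were all above 0, with a median of 0.12, and *Fdps* alone passed 1.2-fold. *Fdps* encodes farnesyl diphosphate synthase, whose product also feeds protein prenylation and the synthesis of dolichol and ubiquinone. Its log2 value was 8.38 in WT and 8.74 in *Mafk*-Tg, a ratio of 1.29, and 98.1% of the brighter genes had a lower difference. *Hmgcs1*, which makes the precursor of mevalonate, had 8.39 in WT and 8.48 in *Mafk*-Tg. *Mvk* and *Pmvk* encode the kinases that act on mevalonate in turn. *Mvk* had 7.47 and 7.49, and *Pmvk* had 6.19 and 6.30. *Mvd*, the decarboxylase that yields isopentenyl diphosphate, had 7.15 in WT and 7.31 in *Mafk*-Tg, 0.16 apart. *Idi1*, the isomerase of that product, was read by 2 probe sets, with 8.19 and 8.26 in WT and *Mafk*-Tg for the first and 8.14 and 8.32 for the other. The differences of these probe sets were 0.07 and 0.18, both above 0 and under 1.2-fold.

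The 11 enzymes from squalene to cholesterol had a median of 0.13, with 9 above 0, and held both a higher and a lower gene past the cutoff. *Lss* encodes lanosterol synthase, which folds squalene epoxide into the first sterol. *Lss* and *Fdps* had the largest differences of all 29 genes, at 0.368 and 0.367, and quantile normalization reversed their order. The *Lss* values were 7.24 in WT and 7.61 in *Mafk*-Tg, or 0.37 higher on the log2 scale. *Tm7sf2*, a sterol reductase gene that acts just after lanosterol is demethylated, went the other way, from 6.83 to 6.57, or a log2 difference of -0.26 at a ratio of 0.83. This value lies on the cutoff itself, and a loess correction of the difference took it to the other side. *Lbr*, a nuclear membrane protein with the same reductase activity, also had a negative difference, from 8.96 to 8.76. No other of the synthesis enzymes measured had a difference below 0.

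The remaining genes of this stretch stayed within 1.2-fold. *Fdft1*, the squalene synthase gene at the branch point to sterols, had 2 probe sets, with 9.25 in WT and 9.45 in *Mafk*-Tg for one and 9.73 and 9.89 for the other. *Sqle*, whose oxygen-dependent enzyme is a slow step of the route, had 8.50 and 8.64. *Cyp51*, the lanosterol demethylase gene, had 7.54 in WT and 7.66 in *Mafk*-Tg. *Msmo1* and *Nsdhl* serve the removal of a pair of methyl groups from the sterol ring, and of these *Msmo1* had 8.24 and 8.44, 0.20 apart. *Nsdhl* had 8.46 and 8.47. *Hsd17b7*, the keto-reductase gene of the same complex, had 7.08 and 7.19. The last 3 genes shape the sterol ring system, *Ebp* by moving a double bond, *Sc5d* by adding one and *Dhcr7* by reducing one. *Ebp* had 7.21 in WT and 7.26 in *Mafk*-Tg, and *Sc5d* had 7.52 and 7.69. *Dhcr7* had 8.17 in both arrays, with no difference at the precision of the file.

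**Figure D2:**
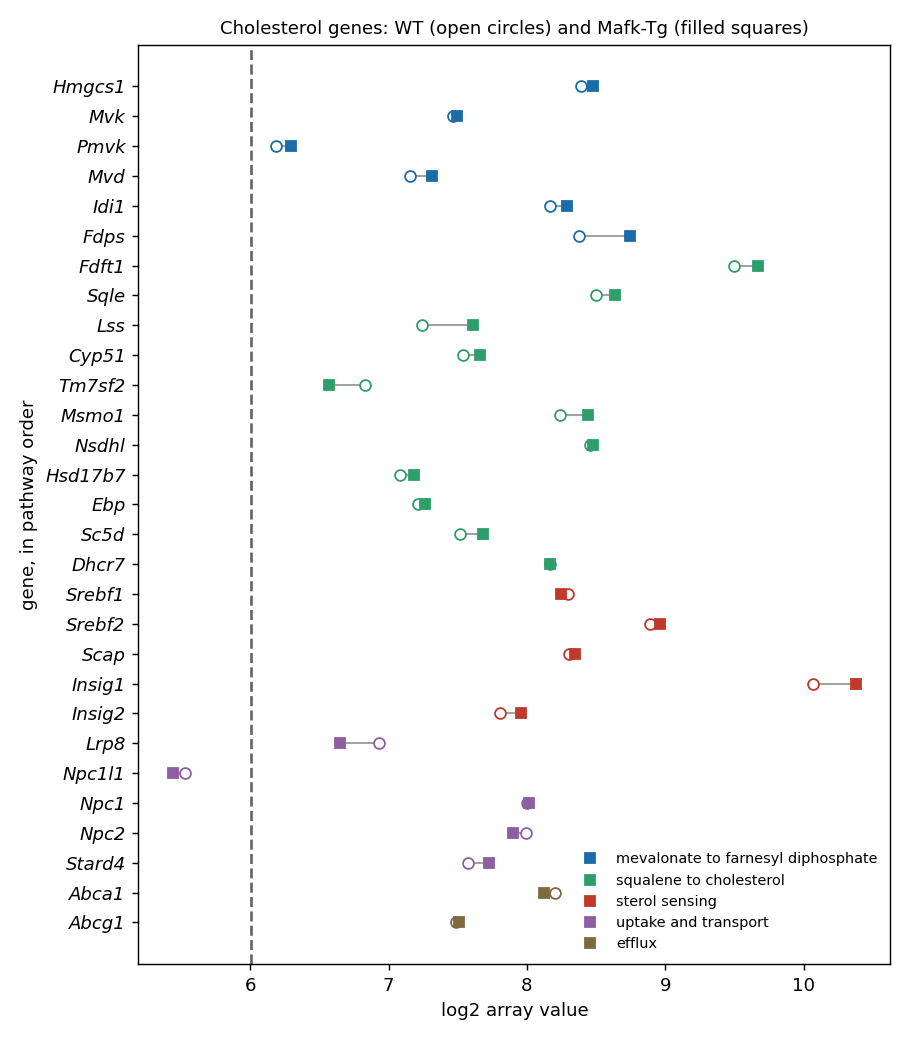
Log2 values of 29 cholesterol genes in pathway order in WT (open circles) and *Mafk*-Tg (filled squares), with 1 array per genotype and a dashed line at the WT array median of 6.01. Only *Npc1l1* lies below that line, at 5.53 in WT and 5.44 in *Mafk*-Tg.

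Among the genes of sterol sensing, *Insig1* differed and the genes of the SREBP factors themselves did not pass the cutoff. *Insig1* had 10.07 in WT and 10.38 in *Mafk*-Tg, a log2 difference of 0.31 and a ratio of 1.24. *Insig2*, its paralog, which is regulated less by sterols, had 7.80 and 7.95, 0.15 apart. *Srebf2*, the factor gene most tied to cholesterol, had 8.89 in WT and 8.96 in *Mafk*-Tg. *Srebf1*, the factor gene most tied to fatty acids, had 8.29 and 8.24, the only negative difference of the group at -0.05. *Scap* had 8.31 and 8.35. The median of the 5 genes was 0.07. SREBP activity depends on cutting of the proteins, which these arrays do not measure.

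Of the 5 genes of uptake and transport, 3 had differences below 0 and 2 above, and 1 of them, *Lrp8*, passed the cutoff. *Lrp8*, a receptor of the lipoprotein receptor family that binds apolipoprotein E and reelin, had 6.93 in WT and 6.65 in *Mafk*-Tg, a log2 difference of -0.28, the lowest of the 29 genes. *Npc1l1*, the sterol importer of the gut, lay below the median of all probe sets in both arrays, with 5.53 and 5.44. *Npc1* and *Npc2* release cholesterol from lysosomes, and their values were 8.00 and 8.01 for *Npc1* and 7.99 and 7.90 for *Npc2*. *Stard4*, a cytosolic sterol carrier gene that SREBP also controls, had 7.58 in WT and 7.72 in *Mafk*-Tg, at 0.15 the highest difference of the 5. The median difference of these 5 genes was -0.09, and -0.04 with the dim *Npc1l1* left out. The exporter genes *Abca1* and *Abcg1*, targets of the oxysterol receptors, had differences of -0.08 and 0.02, from 8.20 to 8.12 and from 7.49 to 7.51. The probes of different genes bind with different strength, so the level of a single gene was compared between the arrays and not with other genes. The median of all probe sets served to mark dim genes and to define the brighter genes.

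**Figure D3:**
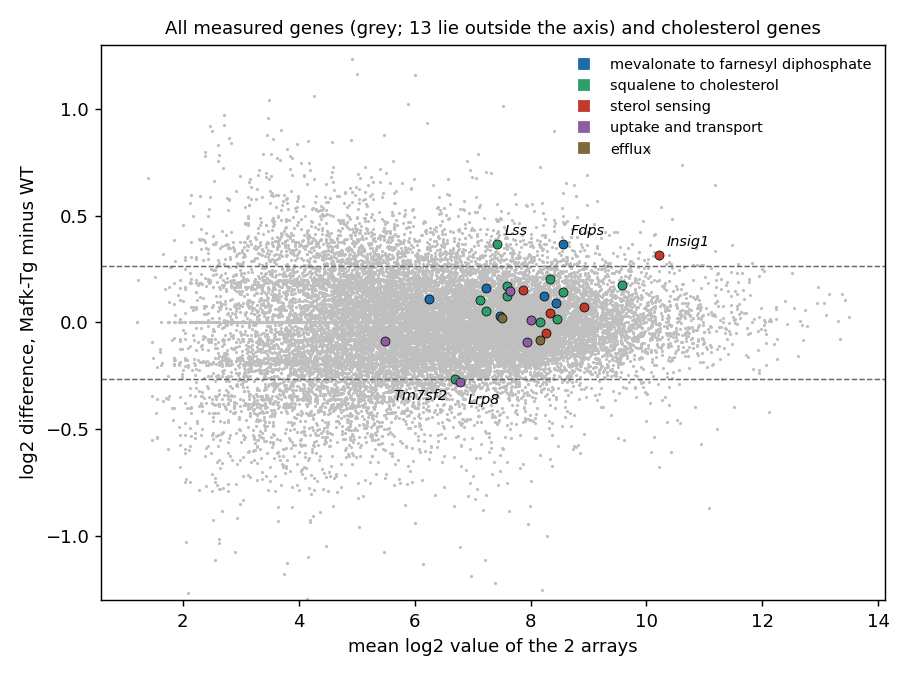
Log2 difference, *Mafk*-Tg minus WT, against the mean log2 value of the 2 arrays for 19938 genes (grey, 13 of them outside the axis) and for 29 cholesterol genes coloured by role, with dashed lines at 1.2-fold. The cholesterol genes lie within the cloud of all genes, with 22 of 29 above 0.

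SREBP acts on promoters together with the factor NF-Y, which binds CCAAT boxes, and the promoters were therefore read for the letters of these sites. RefSeq windows of the GRCm38.p6 build, from 250 bases before to 50 after a transcript start, were at hand for 25 of the 32 genes. The 7 without a window, left out of all shares below, were *Fdps*, *Fdft1*, *Sqle*, *Npc1*, *Stard4*, *Soat2* and *Abcg1*. Some genes had several starts, with 35 windows for the 25 genes and 32851 windows for all 27025 genes. A gene was counted if any of its windows held a site, so genes with more windows had more room for a match. A CCAAT box (CCAAT on either strand) was present in 21 of the 25, or 84.0%, against 41.1% of all 27025 genes with a window and 42.7% of the 9143 counted among the brighter ones. Of the 15 synthesis enzymes with a window, 14 held it, and *Acat2* did not. *Scap*, *Lrp8* and *Abca1* also lacked it. The boxes sat near the start, with 27 of 43 in the last 100 bases before it, or 62.8%, against 43.6% of the boxes in all windows.

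The GC box of SP1 (GGGCGG on either strand) was present in 22 of the 25 genes, or 88.0%, against 70.1% of the brighter genes and 38.2% of all. The E-box (CANNTG) was present in 80.0%, against 66.9% and 74.99%. The core of the sterol response element, searched as TCACNCCAC on either strand, was found in 1 gene of the 25, *Hmgcs1*, and in 1.44% of all genes. With 1 mismatch allowed, a search chosen after the exact one had been seen, 10 of the 25 held it, or 40.0%. The share was 29.1% among the brighter genes and 26.7% among all genes. The Maf recognition element, searched as its arms TGCTGA and TCAGCA at 1 or 2 bases apart, was found in 0 of the 25 and in 4 of all genes, so it is too rare in such windows to be compared. These are matches of letters in short windows, and binding was not measured.

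More than 1 CCAAT box was held by 12 genes, and *Tm7sf2*, lower past the cutoff, had a box 47 bases before the start. Not all of these are shown. The stretches below were picked for *Hmgcs1*, with the sterol element, *Msmo1*, with 3 boxes, and *Lss* and *Insig1*, higher past the cutoff. They run 5′ to 3′ on the strand of the gene in GRCm38.p6, and capitals mark CCAAT boxes (ATTGG on the other strand) and, in *Hmgcs1*, the sterol element as well. That of *Hmgcs1* covers bases 190 to 121 before the start, at chr13:119690161-119690230 on the plus strand, that of *Insig1* bases 250 to 181 at chr5:28071162-28071231 on the plus strand, where a long noncoding RNA gene is also annotated, that of *Lss* bases 110 to 41 at chr10:76531495-76531564 on the plus strand, and that of *Msmo1* bases 170 to 41 at chr8:64733619-64733748 on the minus strand.
Hmgcs1: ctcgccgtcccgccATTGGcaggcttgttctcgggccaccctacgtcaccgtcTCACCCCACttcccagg
Insig1: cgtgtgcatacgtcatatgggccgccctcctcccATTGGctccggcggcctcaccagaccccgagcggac
Lss: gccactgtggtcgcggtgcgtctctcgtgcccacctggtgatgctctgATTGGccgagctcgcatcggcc
Msmo1: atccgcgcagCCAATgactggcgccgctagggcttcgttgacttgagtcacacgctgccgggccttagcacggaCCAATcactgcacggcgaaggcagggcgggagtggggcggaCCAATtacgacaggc

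**Figure D4:**
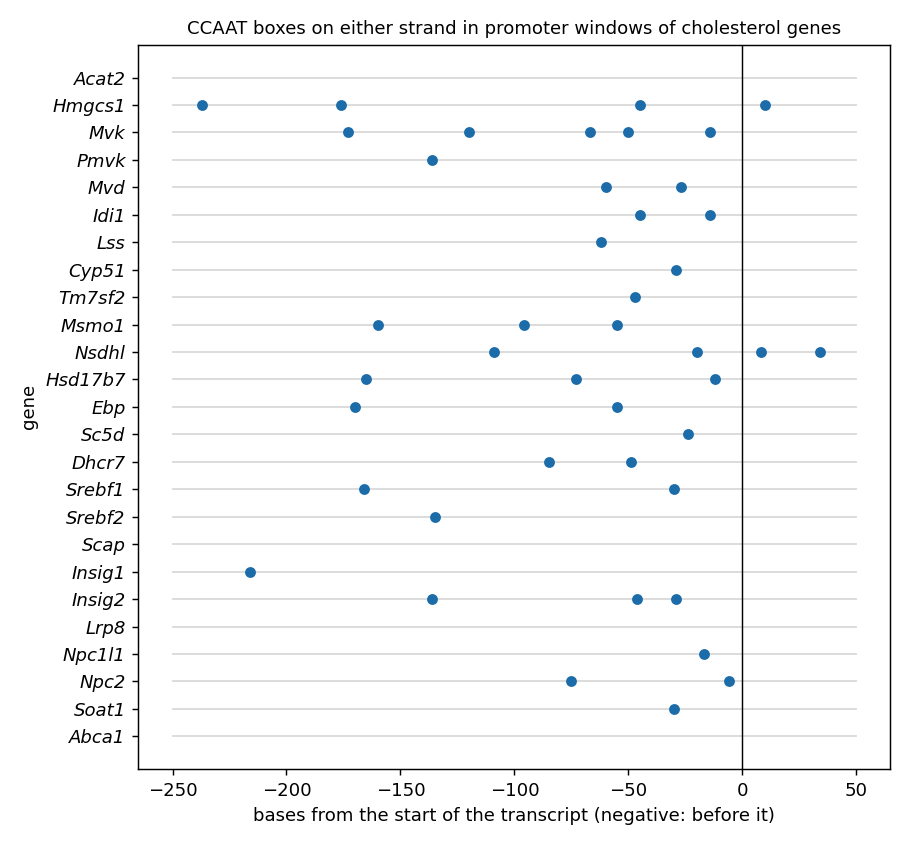
Distance in bases from the transcript start of each CCAAT box (points) in the promoter windows (grey lines) of 25 cholesterol genes, with negative values before the start. The 43 boxes lie in 21 genes, 27 of them in the last 100 bases before the start, and *Mvk* has 5.

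Genes that share the mevalonate route or its regulators had list medians of -0.10 to 0.04. Of 9 genes of the branches to prenyl groups, dolichol and ubiquinone, 0 passed 1.2-fold, 6 lay above 0 and the median was 0.04. *Coq2*, which joins the ubiquinone ring to its tail, had the largest difference of these at -0.16. Of 13 other regulators of sterols, 1 was higher and 0 lower past 1.2-fold, while 4 lay above 0 and 9 below, with a median of -0.10. The higher gene was *Erlin1*, whose protein takes part in the breakdown of sterol-regulated membrane proteins, with 7.60 in WT and 7.90 in *Mafk*-Tg. *Tmem97*, a sterol-responsive membrane protein gene, had 0.20, and *Rxra*, the partner of the oxysterol receptors, had -0.19.

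Fatty acid synthesis, which SREBP also serves, had a median of 0.02 over 17 genes, with 0 higher and 2 lower. The lower ones were *Fads1*, a fatty acid desaturase gene, at -0.27, and *Pnpla3* at -0.28, a dim gene under the middle of all probe sets. *Fasn*, the fatty acid synthase gene, had 9.55 in WT and 9.60 in *Mafk*-Tg, *Me1* had a difference of 0.25 and *Scd2* one of 0.23. Of 18 other genes of sterol transport and breakdown, 1 was higher and 3 were lower, with a median of 0.00. *Osbpl2*, an oxysterol-binding protein gene, was higher by 0.29. *Cyp27a1*, an oxysterol and bile acid enzyme gene, had -0.40, the transporter gene *Abca7* had -0.36, and *Abcg5*, below the median of all probe sets, had -0.37.

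**Figure D5:**
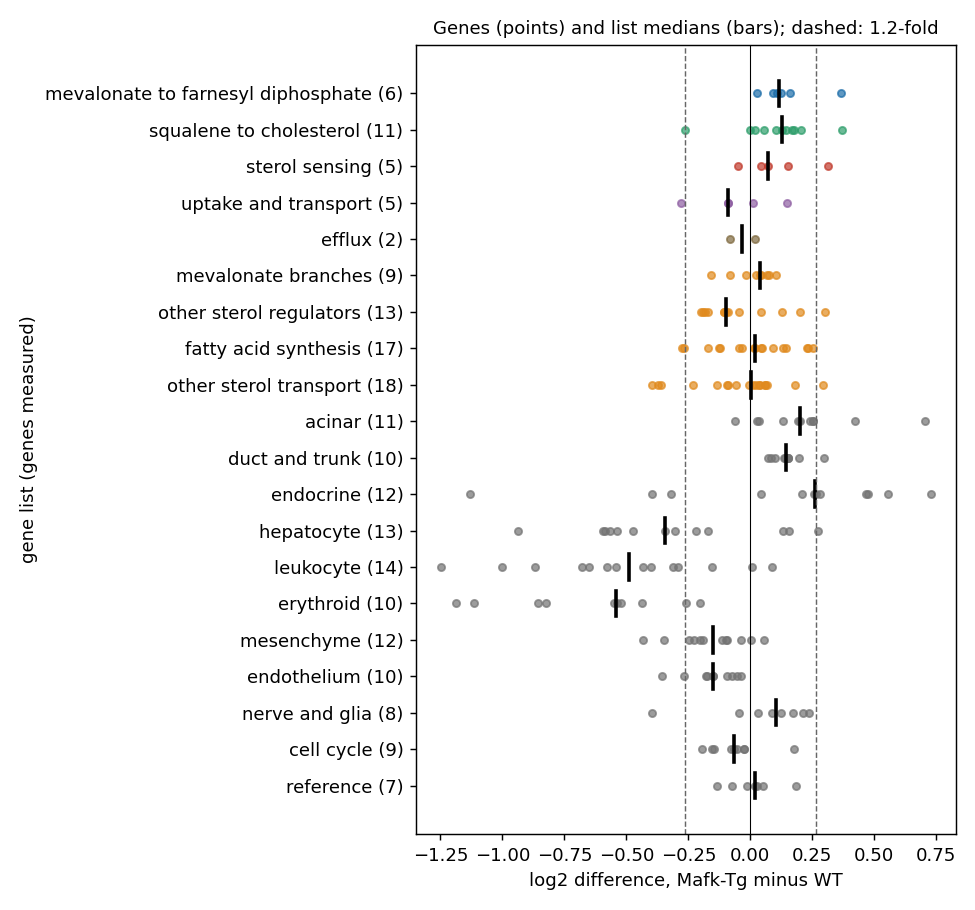
Each point is a measured gene and each bar a list median, on an axis of the log2 difference (*Mafk*-Tg minus WT, single arrays), with numbers of genes in brackets and dashed lines at 1.2-fold. The enzyme lists have medians of 0.12 and 0.13 and the duct and acinar lists 0.15 and 0.20, while leukocyte and erythroid lists lie at -0.49 and -0.54.

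The arrays also differed in markers of the cell types that a dissected pancreas holds, and in markers of sex. Acinar markers had a median log2 difference of 0.20 over 11 genes and a summed linear level of 36729 in WT and 39141 in *Mafk*-Tg, with 10 of 11 above 0. Duct and trunk markers had 0.15 over 10 genes, with sums of 7776 and 8650. Endocrine markers had 0.26 over 12 genes, with 6 higher and 3 lower, the lowest *G6pc2* at -1.13. Hepatocyte markers, from a tissue that makes much cholesterol, had -0.34 over 13 genes, with 8 lower and 1 higher and sums of 5608 and 4618. Leukocyte markers had -0.49 over 14 genes with 11 lower, and their sums were 7780 and 4839. All these sums add probe sets that bind with different strength and weigh the brightest genes most, so they do not measure cell share. Erythroid markers had -0.54 over 10 genes with 8 lower, and mesenchyme and endothelium markers had -0.15 and -0.15. Nerve and glia markers had 0.11, cell cycle genes -0.07 and reference genes of broad expression 0.02. The part of these markers in the cholesterol gene values was not tested, and in whole tissue a change in cell share and a change of RNA per cell cannot be told apart.

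*Xist*, the RNA that coats an inactive X chromosome, was at 4.40 in WT against 11.30 in *Mafk*-Tg on the log2 scale, and 3 genes of the Y chromosome had differences of -5.68 to -3.93. Sex and genotype cannot be told apart in these arrays. Of the cholesterol genes *Nsdhl* and *Ebp* are X-linked, with differences of 0.02 and 0.05, and without them 20 of 27 genes lay above 0, with a median of 0.10. *Mafk* itself had 6.75 in WT and was 0.25 higher in *Mafk*-Tg, under 1.2-fold.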

How the data were processed

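RNA of whole E15.5 pancreas was hybridised to Affymetrix MoGene-1_0-st-v1 arrays. The deposited values are on the log2 scale. The authors normalized and summarized them in Affymetrix Expression Console, for which the sources used here state neither version nor algorithm. The 35556 probe sets had medians of 6.01 in both arrays and values of 0.51 to 14.01, and no further scaling was applied.

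Probe sets with exactly 1 gene symbol in the platform table, 21789 in all, were averaged per gene. WT was subtracted from *Mafk*-Tg, with a cutoff of 1.2-fold. A single array per genotype allows no test and limits the precision of every value. The cholesterol genes and all other lists were chosen with earlier results of these data known, so no list is independent evidence. Named genes are all members, genes of the related lists past the cutoff or among the 4 largest differences, up to 2 per cell type list, *Mafk* and the sex-linked markers, and *Fasn* was added after its values had been seen. The motif list was altered once the promoter table was at hand, by leaving out an oxysterol receptor repeat and by writing the Maf element as a pair of arms. The background of brighter genes and the stretches printed were chosen after the motif matches had been seen. A planned comparison of paralog proteins was not run. Alternatives were equal medians, quantile normalization, a loess (span 0.3), a level filter, other choices of probe sets, other cutoffs and leaving out X and Y genes. The averaging per gene and the differences were tested on simulated data, and the scalings and motif searches were not. Software was Python 3.11.15 with matplotlib 3.10.9, statsmodels 0.14.6, pandas 2.3.3 and numpy 2.4.6.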

Additional observations from a re-analysis of the deposited data

How the results depend on the processing

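No paired analysis was possible because each genotype has 1 array. Among the counts of cholesterol genes past the cutoff, 3 moved by over 1.5 times. With a 1.5-fold cutoff 0 cholesterol genes were higher and 0 lower, where 0.697% and 1.27% of all genes were, and with a loess trend against mean level subtracted, 1 gene, *Lrp8*, was lower, since *Tm7sf2* moved from -0.26338 to -0.261699 against a cutoff of 0.263034. *Fdps*, *Lss* and *Insig1* were the 3 higher genes under every alternative at 1.2-fold, and a ratio rounded to 1 decimal added *Msmo1*, while it took the share of all genes from 7.96% to 12.4% higher and from 10.5% to 15.98% lower. The count of differences above 0 was 22 or 23 of 29 under the scalings and probe set choices. No gene's difference moved by more than 0.0537, the shift of *Idi1* when its brightest probe set was used. For a gene with 1 probe set, choosing the brightest probe set repeats the same value, so that alternative is no check of it. A filter on dim probe sets took the median difference of the uptake and transport genes from -0.09 to -0.04, since *Npc1l1* then has no value. The precision of all values is limited by the single array per genotype.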

Other observations

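*Dhcr7* is among 687 of 19938 genes, or 3.45%, that have exactly the same log2 value in both arrays, and 146 of these lie among the 11412 brighter genes. A probe set shared by *Srebf2*, *Ube3a*, *C230091D08Rik* and *P3h3*, which was not used for *Srebf2*, had 8.37 in WT and 8.51 in *Mafk*-Tg. A probe set shared by *Yy2* and *Mbtps2*, the gene of a protease that cuts SREBP, had 8.25 and 8.35.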
